A study of Mus musculus with 8 samples.

Results

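The AP-1 and Ier immediate-early genes are a set of 10 genes: *Fos*, *Fosb*, *Fosl1*, *Fosl2*, *Jun*, *Junb*, *Jund*, *Atf3*, *Ier2* and *Ier3*. They were chosen by name, as the Fos and Jun family subunits of the AP-1 transcription factor, *Atf3* as a partner of the Jun proteins, and a pair of immediate-early response genes. The choice was made with earlier results of these data known, so counts over the set are a description and not an independent test. All 10 were listed among the 18957 genes of the count files, and all 10 were among the 13036 genes with enough reads to be tested. The libraries came from cardiac fibroblasts of the mouse ventricles, isolated by collagenase digestion of the heart and sorted by FACS as PDGFRA-positive cells without hematopoietic lineage markers. There were 4 libraries from *Pdgfra-Cre:LmnaF/F* mice and 4 from wild-type (WT) littermates, from animals of 3 to 4 weeks of age, on a strain labelled C57BL/6 (mixed). In the *Pdgfra-Cre:LmnaF/F* mice a Cre recombinase driven by *Pdgfra* sequences of a BAC transgene removes the floxed exon 2 of both *Lmna* alleles. *Lmna* encodes lamin A/C, a protein of the nuclear lamina. *Pdgfra* is also active in other mesenchymal cells. The WT mice carried wild-type alleles alone, and no library with Cre but without the floxed allele was analysed here, so the Cre transgene and the *Lmna* deletion cannot be told apart. The comparison asks how the transcripts of these genes differed between *Lmna*-deleted and WT fibroblasts. The labels number the replicates without naming animals, so a p-value measures the spread between these samples.

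AP-1 is a dimer of basic leucine zipper proteins. Jun proteins can pair with themselves or with Fos proteins, whereas Fos proteins need a Jun partner to bind DNA. Many of these genes are immediate-early genes: mitogens, stress, cytokines and mechanical load induce them within minutes through MAP kinases and through transcription factors already present in the cell, such as SRF with its ternary complex factors, and their transcripts are short-lived. In fibroblasts AP-1 takes part in the response to growth factors, in proliferation and in the control of matrix-degrading enzymes and cytokines. Enzymatic dissociation of tissue is also known to induce this class of genes.

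Library depth ranged from 2080555 counts in WT replicate 2 to 12502949 counts in *Pdgfra-Cre:LmnaF/F* replicate 4. WT replicate 2 was the shallowest by far, with the next library at 6345584 counts. WT replicate 3 stood apart on the first principal component, which held 26.2% of the variance of the 500 most variable genes. Levels are given as CPM, the counts scaled to a common library total, after TMM scaling. Differences are given as the log2 fold change of *Pdgfra-Cre:LmnaF/F* over WT from the quasi-likelihood test of edgeR, with its standard error (SE). A gene was called at an adjusted p under 0.05, with the Benjamini-Hochberg adjustment over all genes tested. The targeted gene *Lmna* was at 274 to 483 CPM in WT and at 90.4 to 130.0 CPM in *Pdgfra-Cre:LmnaF/F*, and fell by 1.72 on the log2 scale (SE 0.22, adjusted p = 0.00492). The summed level of 8 fibroblast markers was 46944 to 54126 CPM in WT and 40549 to 55904 CPM in *Pdgfra-Cre:LmnaF/F*. These are bulk samples, in which fewer cells of a type and less RNA per cell cannot be told apart.

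Of the 10 genes, 9 had a positive log2 fold change, against 51.8% of all tested genes, and their median log2 fold change was 1.34, against 0.02 over all tested genes. In 6 of them (*Fos*, *Fosb*, *Junb*, *Atf3*, *Ier2* and *Ier3*) each *Pdgfra-Cre:LmnaF/F* library lay above each WT library, a pattern seen in 4.06% of tested genes. These 6 were 2.48 to 4.52 times as high in *Pdgfra-Cre:LmnaF/F* as in WT. An unadjusted p under 0.05 with a higher level in *Pdgfra-Cre:LmnaF/F* was found for the same 6 of 10 genes and for 6.24% of tested genes. After adjustment over all tested genes, *Ier3* alone was called, 1 of 10 against 0.407% of tested genes, and the adjusted p of the other 5 lay between 0.0649 and 0.0850. DESeq2, the program named in the study, called all 6 in the same counts, where it called 2.15% of the 14339 genes with an adjusted p. The remaining 4 genes (*Fosl1*, *Fosl2*, *Jun* and *Jund*) were called by neither tool. As a share of all counts in a library, the 10 genes together held 0.131% to 0.348% in WT and 0.497% to 0.774% in *Pdgfra-Cre:LmnaF/F*.

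**Figure D1:**
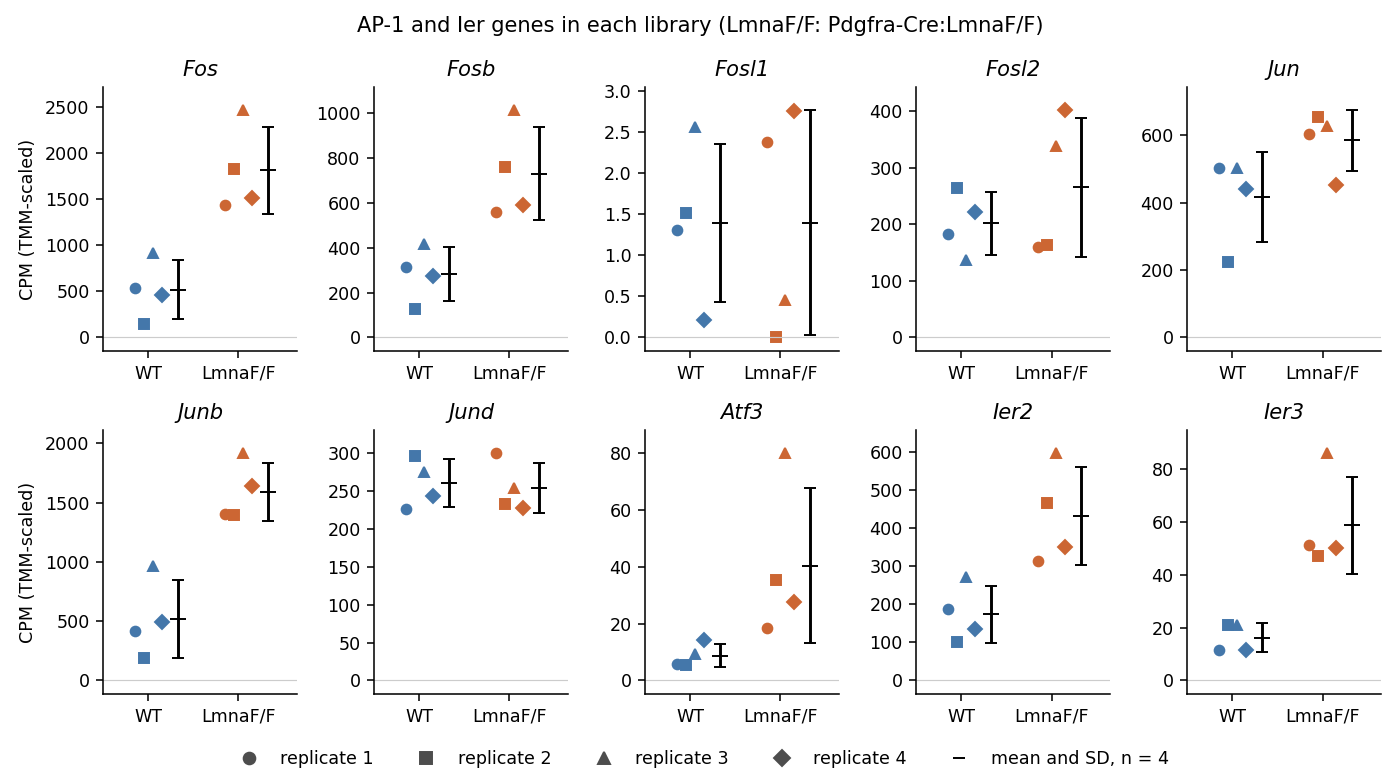
The TMM-scaled CPM of each of the 10 genes (vertical axes, each on its own scale) is plotted for the 4 WT and the 4 *Pdgfra-Cre:LmnaF/F* libraries, with the replicate number as the symbol and the bar as mean ± SD. The groups do not overlap for *Fos*, *Fosb*, *Junb*, *Atf3*, *Ier2* and *Ier3*, and *Pdgfra-Cre:LmnaF/F* replicate 3 is the highest library for each of these 6.

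**Figure D2:**
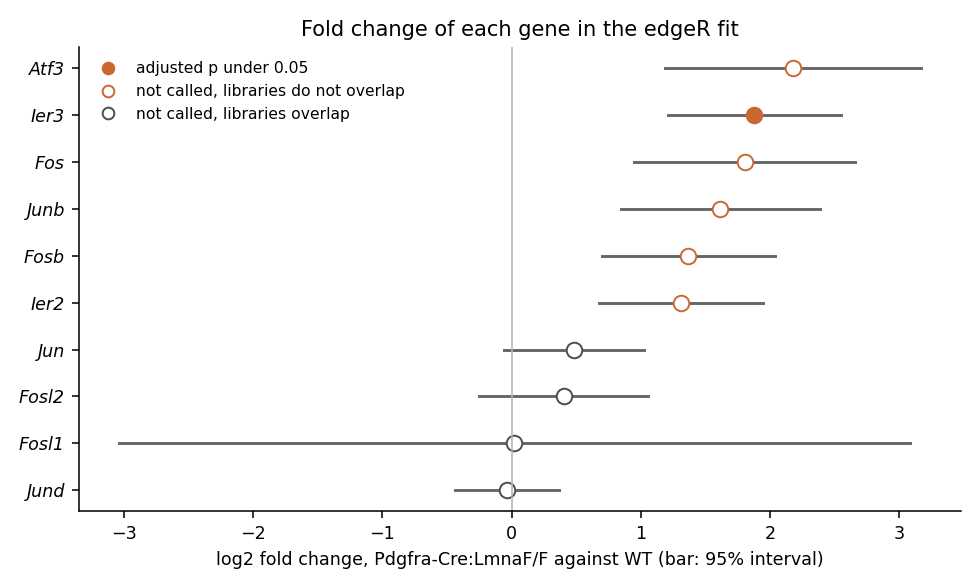
The log2 fold change of *Pdgfra-Cre:LmnaF/F* over WT (horizontal axis) is plotted for each of the 10 genes, with its 95% confidence interval. The intervals of *Fos*, *Fosb*, *Junb*, *Atf3*, *Ier2* and *Ier3* lie above 0, those of the other 4 include 0, and *Ier3* alone passed the adjusted threshold.

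The promoters of 8 of the 10 genes were read from RefSeq on GRCm38.p6, each from 250 bases before the transcription start to 50 bases after it. *Fosl1* and *Ier2* had no entry. The windows of *Fos*, *Fosb* and *Junb* are printed because these are the Fos and Jun family genes whose groups did not overlap. Capitals mark TGACG, the core of the cyclic AMP response element (CRE), and TATAAA, the TATA box. Both were searched on both strands. The *Fos* window is chr12:85473640-85473939 on the plus strand, the *Fosb* window chr7:19309996-19310295 on the minus strand and the *Junb* window chr8:84978699-84978998 on the minus strand.
Fos: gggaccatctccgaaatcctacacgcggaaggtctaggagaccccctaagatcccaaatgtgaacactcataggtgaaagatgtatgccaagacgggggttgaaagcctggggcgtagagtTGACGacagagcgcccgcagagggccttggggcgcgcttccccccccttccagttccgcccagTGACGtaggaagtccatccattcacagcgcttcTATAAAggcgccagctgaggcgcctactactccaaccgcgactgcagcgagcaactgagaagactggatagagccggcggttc
Fosb: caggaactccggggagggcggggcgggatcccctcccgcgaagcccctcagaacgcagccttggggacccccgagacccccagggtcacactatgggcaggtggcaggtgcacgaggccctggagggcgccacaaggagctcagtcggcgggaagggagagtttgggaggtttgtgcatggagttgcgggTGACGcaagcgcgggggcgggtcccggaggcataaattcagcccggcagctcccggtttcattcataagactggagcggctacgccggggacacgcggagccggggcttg
Junb: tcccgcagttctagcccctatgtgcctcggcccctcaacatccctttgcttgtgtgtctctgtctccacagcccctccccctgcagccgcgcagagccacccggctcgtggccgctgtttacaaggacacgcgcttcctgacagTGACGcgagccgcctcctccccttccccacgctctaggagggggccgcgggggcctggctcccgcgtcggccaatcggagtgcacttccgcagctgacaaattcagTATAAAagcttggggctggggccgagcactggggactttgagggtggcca
TGACG stood at positions -129 and -66 of *Fos*, -60 of *Fosb* and -106 of *Junb* relative to the RefSeq start. The *Atf3* window held it once, on the opposite strand, at -7. Thus 4 of 8 windows held TGACG, against 20.8% of the 32851 RefSeq promoters of this length. TATAAA was found at -33 of *Fos* and at the start itself of *Junb*, 2 of 8 windows against 13.6% of promoters. The GENCODE gene start was the RefSeq start for *Fos* and *Jun*, lay within 30 bases of it for *Fosb*, *Junb* and *Ier3*, and lay 671 bases away for *Fosl2*, 1210 for *Jund* and 34706 for *Atf3*. For *Junb* it lay 30 bases downstream, so the *Junb* TGACG and TATAAA lie farther upstream of the GENCODE start. The full CRE (TGACGTCA, which contains TGACG), the AP-1 site TGANTCA and the CArG box bound by SRF were found in 0 of these 8 windows, and in 1.79%, 7.81% and 1.63% of all promoters. Sites farther upstream than 250 bases, and sites that differ from these letters, were not searched. The count of 0 thus covers these windows and letters alone. A match is a run of letters in the sequence, and binding was not measured.

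*Fos* encodes c-Fos, the AP-1 subunit with the sharpest serum response, and lies on chromosome 12 (ENSMUSG00000021250.13, GRCm38 85473890 to 85477273, plus strand). *Fos* was at 542, 145, 922 and 465 CPM in WT replicates 1 to 4, and at 1438, 1831, 2472 and 1519 CPM in *Pdgfra-Cre:LmnaF/F* replicates 1 to 4. The lowest *Pdgfra-Cre:LmnaF/F* library was above the highest WT library, and the WT libraries were themselves spread widely. The means were 519 ± 319 CPM in WT and 1815 ± 469 CPM in *Pdgfra-Cre:LmnaF/F* (SD, n = 4 each). This gave a log2 fold change of 1.80 (SE 0.40), a 3.49-fold difference with a 95% interval of 1.93 to 6.32, which did not pass the adjusted threshold in edgeR (adjusted p = 0.0757). DESeq2 gave *Fos* an adjusted p of 0.0188. A larger log2 fold change than that of *Fos* was found in 1.80% of tested genes.

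*Fosb* encodes a Fos protein known for a stable, truncated splice form, which gene-level counts do not separate from the full-length transcript. The gene lies on chromosome 7 (ENSMUSG00000003545.3, GRCm38 19302696 to 19310051, minus strand). *Fosb* was at 315, 125, 415 and 275 CPM in the WT libraries and at 559, 759, 1013 and 590.2 CPM in the *Pdgfra-Cre:LmnaF/F* libraries. As with *Fos*, WT replicate 2 was the lowest library, *Pdgfra-Cre:LmnaF/F* replicate 3 the highest, and the groups did not overlap. Its log2 fold change was 1.37 (SE 0.31), a 2.58-fold difference with a 95% interval of 1.62 to 4.09, with an adjusted p of 0.0850 in edgeR and 0.000887 in DESeq2.

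The other Fos proteins, FRA1 and FRA2, lack the strong activation domain of c-Fos and accumulate later after a stimulus. *Fosl2*, which encodes FRA2 (ENSMUSG00000029135.10, chromosome 5, GRCm38 32135801 to 32157842, plus strand), was at 182, 265, 137 and 222 CPM in WT and at 159.7, 163, 338 and 402 CPM in *Pdgfra-Cre:LmnaF/F*. Both ranges shared the span from 159.7 to 265 CPM, and *Pdgfra-Cre:LmnaF/F* replicates 3 and 4 were the highest libraries. Its log2 fold change was 0.40 (SE 0.31, 95% interval -0.25 to 1.06, adjusted p = 0.679). *Fosl1*, which encodes FRA1 (ENSMUSG00000024912.6, chromosome 19, GRCm38 5447547 to 5455946, plus strand), had 14, 3, 16 and 2 counts in WT and 23, 0, 4 and 33 counts in *Pdgfra-Cre:LmnaF/F*. The *Fosl1* difference had a 95% interval of -3.04 to 3.08 on the log2 scale, so a difference of several-fold in either direction was not detectable. *Fosl1* also overlaps *Ccdc85b* on the opposite strand, and the strand setting of the read counting is not given in the sources used here.

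*Junb* encodes JunB, a Jun protein induced together with c-Fos that activates transcription less strongly than c-Jun. It lies on chromosome 8 (ENSMUSG00000052837.6, GRCm38 84974484 to 84978718, minus strand), where it overlaps *Prdx2* on the opposite strand. *Junb* was at 420.2, 192, 967 and 493 CPM in WT and at 1401, 1396, 1918 and 1638 CPM in *Pdgfra-Cre:LmnaF/F*. The *Pdgfra-Cre:LmnaF/F* libraries were all above the WT libraries, of which replicate 3 was the highest and replicate 2 the lowest. The difference was 1.61 on the log2 scale (SE 0.36), a ratio of 3.06 with a 95% interval of 1.80 to 5.23, with an adjusted p of 0.0791 in edgeR and 0.0371 in DESeq2.

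*Jun* encodes c-Jun, the main transactivating partner of c-Fos and a substrate of the JNK kinases. It is a single-exon gene on chromosome 4 (ENSMUSG00000052684.4, GRCm38 95049034 to 95052222, minus strand) overlapped by the antisense gene *Junos*. *Jun* was at 502, 222, 504 and 441 CPM in WT and at 604, 653, 627 and 452 CPM in *Pdgfra-Cre:LmnaF/F*. In 3 of 4 *Pdgfra-Cre:LmnaF/F* libraries it was above the highest WT library, and replicate 4 lay within the WT range. Its log2 fold change was 0.48 (SE 0.25, 95% interval -0.06 to 1.02, adjusted p = 0.483).

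*Jund* encodes JunD, which is made steadily in resting cells rather than as an immediate-early product. It is a single-exon gene on chromosome 8 (ENSMUSG00000071076.6, GRCm38 70698949 to 70700616, plus strand) overlapped by the antisense gene *Gm11175*. *Jund* was at 227, 296, 276 and 243 CPM in WT and at 301, 233, 255 and 228 CPM in *Pdgfra-Cre:LmnaF/F*, and the groups overlapped over nearly their whole range. The coefficient of variation was 12.0% in WT and 13.0% in *Pdgfra-Cre:LmnaF/F*. The log2 fold change was -0.04 (SE 0.19, adjusted p = 0.966), with a 95% interval of -0.43 to 0.36. The *Jund* interval lies wholly below those of *Fos* and *Junb*. The difference between genes was not itself tested.

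*Atf3* encodes a stress-induced member of the ATF/CREB group that dimerises with Jun proteins and often represses its targets. It lies on chromosome 1 (ENSMUSG00000026628.13, GRCm38 191170296 to 191218039, minus strand), where it overlaps *Gm24748* on the opposite strand. *Atf3* was at 5.70, 5.53, 9.43 and 14.3 CPM in WT and at 18.5, 35.4, 80.1 and 27.7 CPM in *Pdgfra-Cre:LmnaF/F*. The groups did not overlap, and *Pdgfra-Cre:LmnaF/F* replicate 3 was far above the other libraries. In edgeR its log2 fold change was 2.18 (SE 0.46), the largest of the 10 genes in that fit, a 4.52-fold difference with a 95% interval of 2.28 to 8.98. The adjusted p was 0.0649 in edgeR and 0.00134 in DESeq2, and it was 0.107 in limma-voom with sample quality weights, which did not call *Atf3*.

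*Ier3* (also called IEX-1) encodes a small membrane-associated protein induced by growth factors, cytokines and NF-kappaB that modulates cell survival. It lies on chromosome 17 (ENSMUSG00000003541.6, GRCm38 35821684 to 35822923, plus strand). *Ier3* was at 11.5, 21.1, 21.1 and 11.4 CPM in WT and at 51.5, 47.3, 86.2 and 50.1 CPM in *Pdgfra-Cre:LmnaF/F*. The lowest *Pdgfra-Cre:LmnaF/F* library was 2.24 times the highest WT library. *Ier3* rose 3.67-fold (95% interval 2.31 to 5.84), with a log2 fold change of 1.88 (SE 0.31, adjusted p = 0.0221), and ranked 15 of all tested genes by p. Without WT replicate 1, WT replicate 4 or *Pdgfra-Cre:LmnaF/F* replicate 3, each left out alone, *Ier3* was no longer called, with adjusted p values of up to 0.0848.

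*Ier2* encodes a nuclear immediate-early protein of the same naming family but of no close sequence relation to IER3. It is a single-exon gene on chromosome 8 (ENSMUSG00000053560.4, GRCm38 84661331 to 84662852, minus strand). *Ier2* was at 187, 101, 272 and 134 CPM in WT and at 313, 465, 597 and 349 CPM in *Pdgfra-Cre:LmnaF/F*. The groups did not overlap, and the gap between *Pdgfra-Cre:LmnaF/F* replicate 1 and WT replicate 3 was small. The fitted difference was 1.31 on the log2 scale (SE 0.30), a ratio of 2.48 with a 95% interval of 1.60 to 3.85, with an adjusted p of 0.0830 in edgeR and 0.00134 in DESeq2.

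Levels were compared between genes as CPM per kilobase of exon. The length was that of all annotated exons of a gene merged, which can exceed that of the transcripts expressed here. In WT the highest were *Junb* at 225 ± 141 CPM per kb, *Fos* at 220.5 ± 136, *Jund* at 156 ± 18.8, *Jun* at 131 ± 41.8 and *Ier2* at 114 ± 49.0 (SD, n = 4), and each of these overlapped in range with its neighbour in the order. *Fosb* followed at 45.3 ± 19.3, *Fosl2* at 20.8 ± 5.68 and *Ier3* at 14.4 ± 4.94, also with overlapping neighbours. *Atf3* at 4.06 ± 1.91 CPM per kb lay below *Ier3* without overlap, and *Fosl1* at 0.686 ± 0.474 lay below *Atf3* without overlap. In *Pdgfra-Cre:LmnaF/F* the order began with *Fos* at 772 ± 199.6 and *Junb* at 690.2 ± 107 CPM per kb, whose ranges overlapped. *Ier2* at 283 ± 84.1 lay below both, and *Jun* at 183 ± 28.3 below *Ier2*, each without overlap. *Jund* at 152 ± 19.9 overlapped with *Jun* above it and with *Fosb* at 117 ± 33.3 below it. The order ended with *Ier3* at 52.0 ± 16.2, *Fosl2* at 27.5 ± 12.7, *Atf3* at 18.8 ± 12.7 and *Fosl1* at 0.687 ± 0.673. Among the 13006 tested genes with a known exon length, *Fos* ranked 146 by level in WT and 21 in *Pdgfra-Cre:LmnaF/F*, and *Junb* ranked 137 and 25. *Jund* ranked 216 and 214.

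The make-up of the AP-1 pool was described at the transcript level as each gene's percentage of the summed CPM per kb of the 7 Fos and Jun family genes. In WT the 4 largest shares were *Junb* at 26.2% ± 6.65, *Fos* at 25.5% ± 8.04, *Jund* at 22.6% ± 12.0 and *Jun* at 16.8% ± 3.13 (SD, n = 4). In *Pdgfra-Cre:LmnaF/F* the *Fos* share was 39.3% ± 3.66 and the *Junb* share 35.7% ± 3.27, whereas *Jund* made up 8.02% ± 1.84 and *Jun* 9.55% ± 1.75. The *Fos* share ranged from 14.0% to 32.2% in WT and from 36.0% to 43.2% in *Pdgfra-Cre:LmnaF/F*, with no overlap. The *Jund* share ranged from 13.6% to 40.3% in WT and from 6.28% to 10.6% in *Pdgfra-Cre:LmnaF/F*, also with no overlap. Shares sum to a fixed total, and the *Jund* level itself was 261 ± 31.3 CPM in WT and 254 ± 33.1 CPM in *Pdgfra-Cre:LmnaF/F*. Within the Jun family, *Junb* held 40.8% ± 12.9 in WT and 67.1% ± 4.80 in *Pdgfra-Cre:LmnaF/F*. The summed Fos family level was 287 ± 149 CPM per kb in WT and 917 ± 236 in *Pdgfra-Cre:LmnaF/F*, and the summed Jun family level 512 ± 171 and 1026 ± 106. The ratio of the Fos sum to the Jun sum was 0.630, 0.332, 0.638 and 0.532 in the WT libraries and 0.734, 0.964, 1.06 and 0.791 in the *Pdgfra-Cre:LmnaF/F* libraries. The ratio was thus higher in each *Pdgfra-Cre:LmnaF/F* library than in each WT library, and Fos transcripts exceeded Jun transcripts in *Pdgfra-Cre:LmnaF/F* replicate 3 alone. No test was made on these sums and shares, which depend on the exon lengths used, and protein was not measured.

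**Figure D3:**
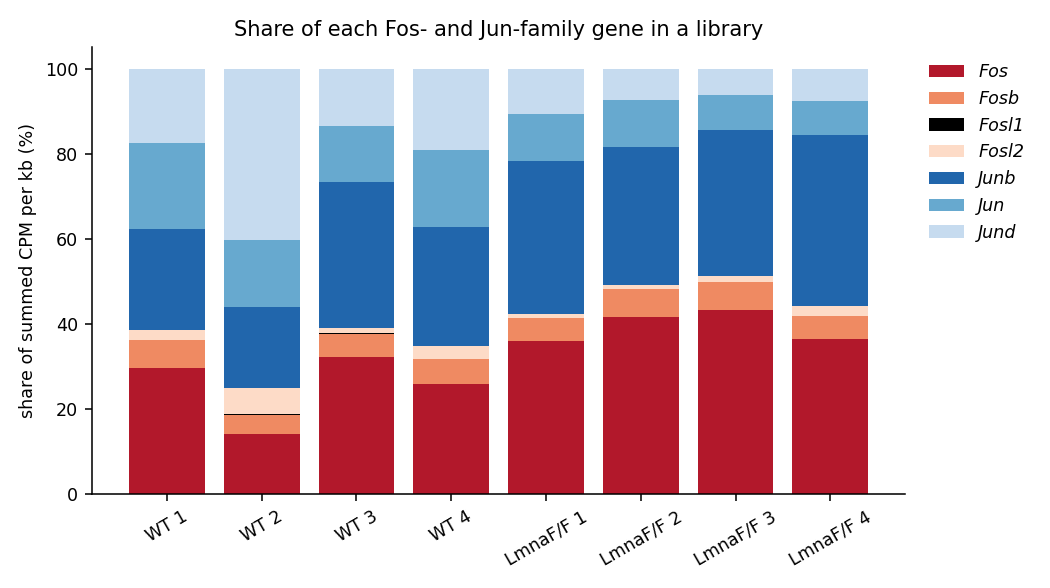
Each bar is a library, divided into the percentage of the summed CPM per kb of the 7 Fos and Jun family genes that each gene held (vertical axis, percent). The *Fos* share is 14.0% to 32.2% in WT and 36.0% to 43.2% in *Pdgfra-Cre:LmnaF/F*, and the *Jund* share is 13.6% to 40.3% and 6.28% to 10.6%.

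How the genes varied together within a genotype was described by Pearson's r of log2 CPM over the 8 libraries after each genotype's mean was removed. *Fos* and *Fosb* had an r of 0.98, *Fos* and *Junb* 0.95, *Fos* and *Ier2* 0.90, *Fos* and *Jun* 0.90, and *Fosb* and *Ier2* 0.93. *Fos* and *Atf3* had an r of 0.50. *Ier3*, the called gene, had an r of -0.02 with *Fos*, and *Fosl2* and *Jund* had r values of -0.37 and -0.36 with *Fos*. These values come from 8 libraries that share their normalization, with WT replicate 2 the lowest library for *Fos*, *Fosb*, *Jun*, *Junb*, *Atf3* and *Ier2* and also the shallowest. Of all other tested genes, the 5 whose within-genotype pattern was most like the mean of the 10 were *G3bp2* (r = 0.99), *Ndufb6* (0.98), *Sytl3* (0.98), *Sat1* (0.97) and *Gm13889* (0.96). They were picked as the highest r of all other tested genes over 8 libraries, so high values follow in part from the selection. None of these 5 was called, and *G3bp2* had a log2 fold change of 0.21.

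The further basic leucine zipper partners of AP-1 were read from the same fit. Of 11 tested genes for further ATF, BATF, JDP2 and Maf proteins, 0 were called in either direction in edgeR or DESeq2 and 1 in limma-voom, 1 had an unadjusted p under 0.05, and the median log2 fold change was 0.04. That 1 gene was *Maff*, which encodes a small Maf protein without an activation domain, at 18.3 to 52.2 CPM in WT and 49.5 to 76.2 CPM in *Pdgfra-Cre:LmnaF/F* (log2 fold change 0.98, SE 0.31, adjusted p = 0.208). *Atf7* had a log2 fold change of -0.37 (adjusted p = 0.527) and *Mafk* of 0.56 (adjusted p = 0.531). The Ier relatives *Ier5l* and *Ier5* had log2 fold changes of 0.48 (adjusted p = 0.346) and 0.18 (adjusted p = 0.874). Of 18 tested genes upstream of the set, for SRF, its ternary complex factors, CREB1 and the MAP kinase cascade, 0 were called in edgeR, DESeq2 or limma-voom. In this upstream list 2 genes had an unadjusted p under 0.05 in the higher direction and 1 in the lower, 12 of 18 had a negative log2 fold change, and the median was -0.07. Over all tested genes such a p was found for 6.24% in the higher direction and 737 of 13036 in the lower. Of all genes tested, limma-voom called 0.967%. The lowest adjusted p values there were those of *Elk1*, a ternary complex factor (log2 fold change -0.93, adjusted p = 0.195), *Mapk8*, the JNK1 kinase (0.69, adjusted p = 0.279), and *Creb1*, a factor that binds the CRE (0.50, adjusted p = 0.391). Transcript levels say nothing of the phosphorylation by which these proteins act.

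Other immediate-early genes, which share the rapid induction of AP-1, were more often higher than lower in *Pdgfra-Cre:LmnaF/F*. Of 34 genes in this list, 32 were tested (*Egr4* and *Dusp2* had too few reads), 5 rose and 0 fell at the adjusted threshold, 22 had an unadjusted p under 0.05 in the higher direction and 0 in the lower, and the median log2 fold change was 1.08. Over all tested genes edgeR called 0.407%, and 6.24% had an unadjusted p under 0.05 in the higher direction. This list too was chosen with earlier results known, and the paper names *Egr2* and *Nr4a2* among its upregulated genes. Its counts are thus a description and not independent support. DESeq2 called 13 of the list and limma-voom 9, all higher, against 2.15% and 0.967% of all genes they tested. The 5 that rose were *Egr2*, an SRF-controlled zinc finger factor (log2 fold change 2.65, SE 0.43, adjusted p = 0.020), *Gadd45b*, a stress sensor upstream of p38 and JNK (1.74, SE 0.30, adjusted p = 0.024), *Btg2*, an antiproliferative gene (2.08, SE 0.37, adjusted p = 0.032), and the orphan nuclear receptors *Nr4a2* (2.78, SE 0.55, adjusted p = 0.043) and *Nr4a1* (1.92, SE 0.39, adjusted p = 0.047). *Egr2* was at 24.4, 11.1, 33.4 and 14.2 CPM in WT and at 72.4, 117, 264 and 79.2 CPM in *Pdgfra-Cre:LmnaF/F*, so that it too was highest in replicate 3. *Gadd45b* was at 10.2, 17.1, 26.4 and 22.7 CPM in WT and at 61.7, 62.5, 55.1 and 75.4 CPM in *Pdgfra-Cre:LmnaF/F*, an even level with replicate 3 the lowest. Leaving out 1 library changed this count from 5 to between 0 and 8. It was 0 without WT replicate 4, 1 (*Egr2*) without *Pdgfra-Cre:LmnaF/F* replicate 2 or replicate 3, 2 without WT replicate 2, 3 without WT replicate 1 and 8 without *Pdgfra-Cre:LmnaF/F* replicate 4. In 17 of the 32 each *Pdgfra-Cre:LmnaF/F* library was above each WT library, against 4.06% of tested genes, and in 1 each was below. The summed level of this list was 3783 to 5228 CPM in WT and 6463 to 11419 CPM in *Pdgfra-Cre:LmnaF/F*.

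The last list held 17 genes widely described as AP-1 targets in fibroblasts, among them matrix metalloproteinases and cytokines. Of these, 15 were tested (*Mmp13* and *Spp1* were not). In edgeR 0 were called, against 0.407% of tested genes, and in DESeq2 2 (*Il6* and *Timp1*), against 2.15%. An unadjusted p under 0.05 was found for 4 in the higher direction and 2 in the lower. Over all tested genes it was found for 6.24% in the higher direction and 737 of 13036 in the lower. The median log2 fold change of the 15 was 0.16. *Il6*, a cytokine, had 0 counts in WT replicates 1 to 3 and was at 0.518 CPM in WT replicate 4, against 5.07, 14.8, 16.7 and 2.17 CPM in *Pdgfra-Cre:LmnaF/F*, and its difference did not pass in edgeR (adjusted p = 0.071). *Ccl2*, a monocyte chemokine, was at 10.1 to 32.2 CPM in WT and at 212, 148, 62.9 and 15.6 CPM in *Pdgfra-Cre:LmnaF/F*, where replicate 4 lay within the WT range. *Ccl2* had a log2 fold change of 2.10 (adjusted p = 0.135) and *Vegfa*, an angiogenic growth factor, of -0.84 (adjusted p = 0.166).

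**Figure D4:**
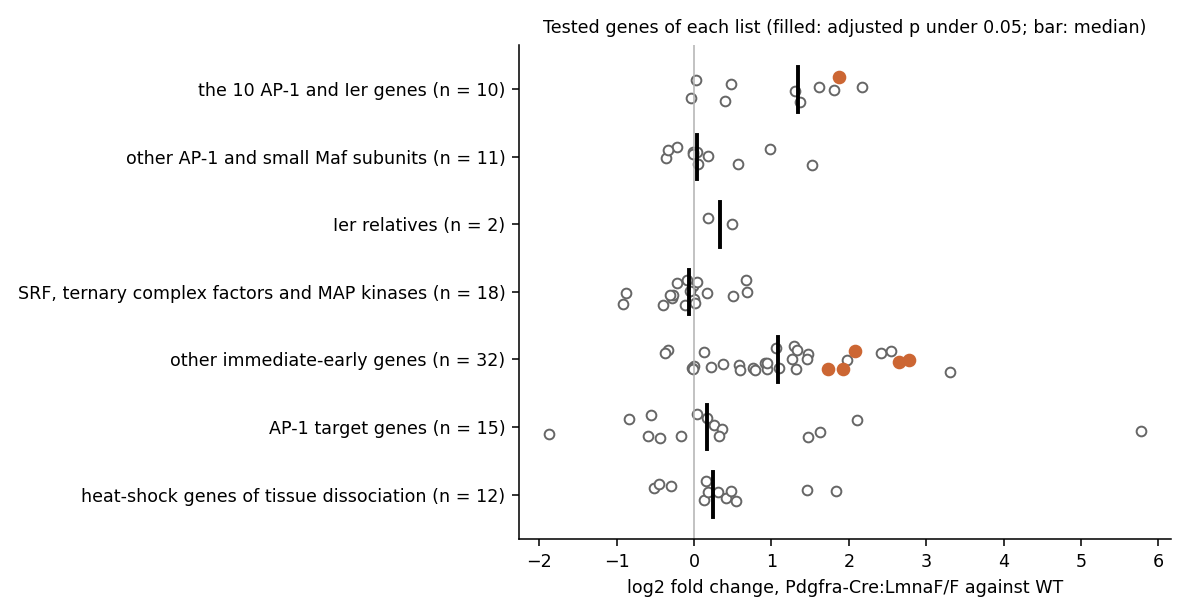
Each point is a tested gene of a list and its position on the horizontal axis is its log2 fold change of *Pdgfra-Cre:LmnaF/F* over WT, with the list's median marked. The medians are 1.34 for the 10 AP-1 and Ier genes, 1.08 for other immediate-early genes and 0.04 for the further AP-1 partners, against 0.02 over all tested genes, and the point farthest to the right is *Il6*, whose fitted value depends on the prior count because most WT libraries were at 0.

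Several measures differed between the groups beside these genes. The Y-linked genes *Ddx3y*, *Uty*, *Kdm5d* and *Eif2s3y* summed to 143 to 273 CPM in WT replicates 1, 2 and 4 and *Pdgfra-Cre:LmnaF/F* replicate 4, and to 0.207 to 1.96 CPM in WT replicate 3 and *Pdgfra-Cre:LmnaF/F* replicates 1, 2 and 3, so that 3 of 4 WT and 1 of 4 *Pdgfra-Cre:LmnaF/F* libraries were high. Among the high libraries the ratio of *Pdgfra-Cre:LmnaF/F* to WT mean CPM was 3.96 for *Fos*, 4.45 for *Junb*, 2.48 for *Fosb*, 3.25 for *Atf3*, 2.49 for *Ier2* and 3.41 for *Ier3*. Among the low libraries it was 2.07 for *Fos*, 1.63 for *Junb*, 1.87 for *Fosb*, 4.74 for *Atf3*, 1.69 for *Ier2* and 2.93 for *Ier3*. Each ratio sets a single library against 3, and a ratio above 1 was fixed by the choice of the 6 genes as those whose groups did not overlap. With Y-linked expression as a covariate edgeR called *Ier3* (adjusted p = 0.0215) and *Junb* (adjusted p = 0.0465).

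Heat-shock genes, which tissue dissociation also induces, summed to 1614 to 2558 CPM in WT and 1640.1 to 2822 CPM in *Pdgfra-Cre:LmnaF/F*. Of 12 tested, 0 were called in edgeR or limma-voom and 1 in DESeq2 (*Hspa1b*), against 2.15% of all genes in DESeq2. An unadjusted p under 0.05 in the higher direction was found for 3 of the 12, against 6.24% of tested genes. In 1 of the 12, *Hspa1b*, each *Pdgfra-Cre:LmnaF/F* library (23.4 to 90.9 CPM) lay above each WT library (14.6 to 22.7 CPM), against 4.06% of tested genes. The median log2 fold change of the 12 was 0.25. The lowest adjusted p values were those of *Hspa1b* (log2 fold change 1.47, adjusted p = 0.124), *Dnajb1* (0.48, adjusted p = 0.370) and *Hspa1a* (1.83, adjusted p = 0.393). Of the markers of other cells, the endothelial sum was 551 to 754 CPM in WT and 425 to 539.7 CPM in *Pdgfra-Cre:LmnaF/F*, without overlap, and the mesothelial sum was 11.0 to 27.2 and 4.48 to 11.9 CPM. The cardiac myocyte sum was 286 to 668 CPM in WT and 225 to 3297 CPM in *Pdgfra-Cre:LmnaF/F*, the highest value being that of replicate 4, which was also the highest for the leukocyte sum (29.2 to 79.6 and 27.8 to 202 CPM). The pericyte and smooth muscle sum (229.7 to 392 and 203 to 386 CPM), the Schwann cell sum (3.52 to 7.01 and 1.25 to 7.71 CPM) and the erythroid sum (31.6 to 365 and 16.8 to 666 CPM) overlapped. No marker gene was at 0 in all 8 libraries, and none was called in edgeR, while DESeq2 called the endothelial gene *Tek*, which was lower. The part of dissociation, of these other cells and of the Y-linked split in the levels of the AP-1 and Ier genes was not tested.

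The number of the 10 genes that were called depended on the test, the filter on low counts, the terms in the model and single libraries. Over 12 other settings of the analysis the log2 fold change was 1.63 to 2.32 for *Fos*, 1.50 to 2.09 for *Junb*, 1.21 to 1.56 for *Fosb*, 1.70 to 2.22 for *Atf3*, 1.14 to 1.48 for *Ier2* and 1.76 to 2.35 for *Ier3*. It was 0.30 to 0.69 for *Jun* and -0.12 to 0.10 for *Jund*. *Fosl2* ranged from 0.071 in limma-voom to 0.71 with the Y-linked covariate, and *Fosl1* from -0.63 with the replicate block to 0.86 without WT replicates 2 and 3 together. The share of all tested genes called was 0.123% to 2.15% in these settings. *Ier3* was called in 12 of these 12 settings, *Junb* in 7, *Fos* in 6, *Fosb* and *Ier2* in 4 and *Atf3* in 3, while *Jun*, *Jund* and *Fosl2* were called in 0 of 12 and *Fosl1* in 0 of the 10 in which it was tested. With a single library left out, 0 to 4 of the 10 were called, and 0.096% to 0.565% of all tested genes. None was called without WT replicate 1, without WT replicate 4 or without *Pdgfra-Cre:LmnaF/F* replicate 3, and *Fos*, *Ier2*, *Ier3* and *Junb* were called without WT replicate 3. Without *Pdgfra-Cre:LmnaF/F* replicate 1 or replicate 4, *Atf3* and *Ier3* were called.

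**Figure D5:**
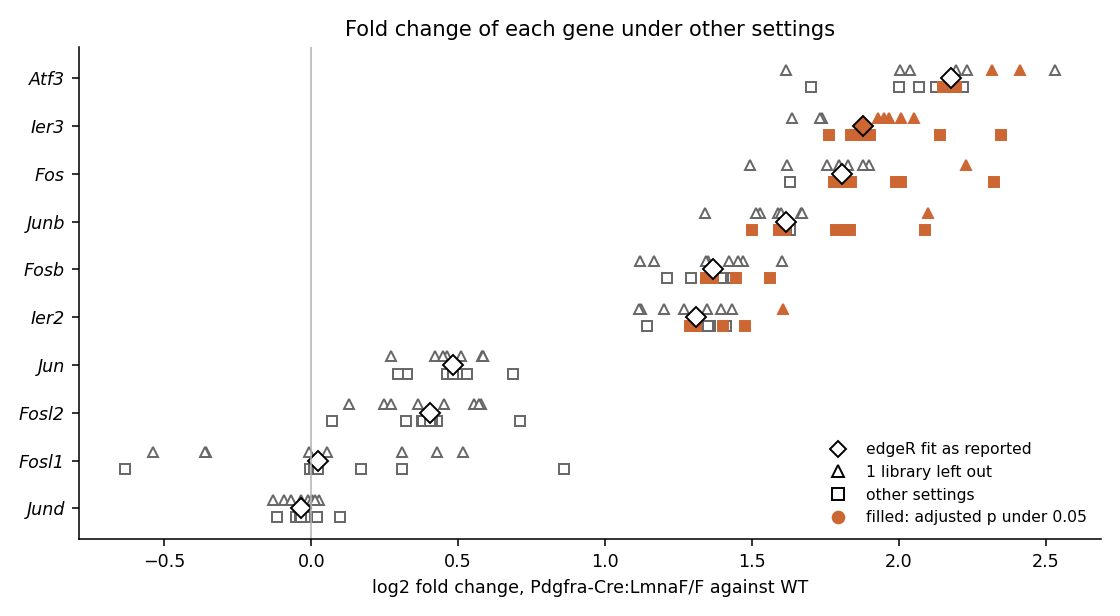
The log2 fold change of each of the 10 genes is plotted for the analysis as reported, for each other setting and for each fit without a single library (horizontal axis), with filled symbols where the adjusted p was under 0.05. The values of *Fos*, *Fosb*, *Junb*, *Atf3*, *Ier2* and *Ier3* stay above 1, whereas those of *Jund* and *Fosl1* lie on both sides of 0.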

How the data were processed

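RNA was taken from sorted PDGFRA+ ventricular cells and sequenced as 4 WT and 4 *Pdgfra-Cre:LmnaF/F* libraries. Per the labels and the study's methods, ribosome-depleted, strand-specific libraries were read as paired ends and aligned to mm10 with HISAT2, and the authors deposited whole-number read counts per gene from featureCounts with a GENCODE annotation whose release is not given in the sources used here. The study names RUV normalization, but the deposited values are unnormalized counts. FastQC and DESeq2 are named in the submitters' processing notes, without versions.

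The counts were tested with edgeR 4.0.16 in R 4.3.3 (TMM, filterByExpr by genotype, glmQLFit and glmQLFTest with genotype alone, Benjamini-Hochberg adjustment, threshold 0.05). Alternatives were upper-quartile and RLE scaling, no filter, at least 10 counts in every library, DESeq2 1.42.0, limma-voom with sample quality weights (limma 3.58.1), a RUVr factor, a replicate block, a Y-linked covariate, thinning to the shallowest library and leaving out each library. Leaving out WT replicates 2 and 3 together, and leaving the 10 genes out of the scaling, were added after seeing the data. Exon lengths and positions came from GENCODE M21 (GRCm38), matching 18918 of 18957 symbols, and promoters from RefSeq. Scripts were tested on simulated data.

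The 10 genes and all lists were chosen with earlier results of these data known. Genes named from a list are those called and otherwise the 3 with the lowest p. Total counts of 2080555 to 12502949 per library limit precision for genes at few counts. The limma-voom call in the AP-1 target list is not reported here.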

Additional observations from a re-analysis of the deposited data

Results flagged for a closer look

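Each of the 10 AP-1 and Ier genes was examined in each genotype for a library far from the other 3, which gave 20 groups of 4 values. A single value stood out. *Ier3* was at 86.2 CPM in *Pdgfra-Cre:LmnaF/F* replicate 3, whereas the other 3 libraries of that genotype lay between 47.3 and 51.5 CPM. The gap to the nearest library was 0.893 of the whole range of the group, above Dixon's 95% critical value for 4 values. Chance alone marks about 1 group in 20. The same library was the highest for *Fos*, *Fosb*, *Junb*, *Atf3* and *Ier2*, without passing this limit for them.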

How the results depend on the processing

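The number of the 10 genes called was 1 in the analysis as reported, 1 with RLE or upper-quartile scaling, with thinned counts and with the 10 genes left out of the scaling, 2 with at least 10 counts in every library and with the Y-linked covariate, 3 without WT replicates 2 and 3 together, 5 with limma-voom with sample quality weights and with RUVr, and 6 with no filter and with DESeq2. With a replicate block 3 were called (*Fos*, *Ier3* and *Junb*) and 36 genes in all. Same-numbered libraries did not deviate together (correlations -0.0568 to 0.0114, with 0 of 4 numbers best matched by their own). The labels state no pairing, and a check on so few libraries cannot exclude shared handling. Without 1 library 0 to 4 of the 10 were called. The count over all genes was 53 as reported, 274 with no filter, 309 with DESeq2, 126 with limma-voom, 81 with RUVr, 133 with the Y-linked covariate, 18 without WT replicates 2 and 3 together, and 13 to 76 without 1 library. Direction was kept in all settings by *Fos*, *Fosb*, *Fosl2*, *Jun*, *Junb*, *Atf3*, *Ier2* and *Ier3*. *Fosl1* had a log2 fold change of -0.00415 with no filter, -0.63 with the replicate block and -0.54 to 0.52 without 1 library. *Jund* had 0.020 with limma-voom, 0.019 with thinned counts, 0.10 without WT replicates 2 and 3 together and -0.13 to 0.026 without 1 library. The cause was not tested. *Fosl1* had 0 to 33 counts in a library and was not tested with thinned counts or with at least 10 counts in every library, and depth limits what can be seen of genes at so few counts.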
